A study of Caenorhabditis elegans with 6 samples.

Results

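The small heat shock proteins of Caenorhabditis elegans were examined through 9 named genes: hsp-12.1, hsp-12.2, hsp-12.3, hsp-12.6, hsp-16.2, hsp-16.41, hsp-16.48, hsp-17 and sip-1. A gene counted as measured when at least 1 probe set of the array carried its symbol alone, and its brightest such probe set over all arrays stood for it. By this rule 8 of the 9 genes were measured, among 17118 genes measured in all. They comprise 4 hsp-12 genes, 2 hsp-16 genes, hsp-17 and sip-1. The exception was hsp-16.48, whose probe set is shared with another gene of the family. RNA came from starved first-stage (L1) larvae that were lin-35(n745) mutants, 3 arrays, or wild type, 3 arrays. LIN-35 is the worm's retinoblastoma (Rb) protein and represses transcription together with E2F and DP partners, and n745 is known as a nonsense allele. Larvae of both genotypes hatched into buffer with neither food nor cholesterol and were kept at 20 °C for 30 h, so no array represents a fed larva. The mutant is represented by 1 allele, every array holds RNA of whole animals, and no array represents heat-shocked larvae.

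Small heat shock proteins carry an alpha-crystallin domain and bind unfolding proteins without using ATP, which keeps them soluble until the HSP70 system refolds them. In C. elegans the hsp-16 genes are nearly silent in unstressed animals and are switched on by heat and oxidants through the heat shock factor HSF-1. Several hsp-12 genes differ from them in having short ends around the domain and in responding little to heat. Among the hsp-12 genes, hsp-12.6 is known as a target of DAF-16, the FOXO transcription factor that is active in starved and long-lived worms. Messages of both kinds are therefore read in starvation studies as markers of stress resistance.

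Levels are on the log2 scale as summarised by RMA (robust multi-array averaging), differences are lin-35(n745) minus wild type, and a difference of 1 is a doubling. A gene is said to rise or fall when its adjusted p lay under 0.05 (limma, adjusted over all 22548 probe sets tested). Array medians lay between 5.91 and 6.11. The lin-35 message did not check the genotype, since the allele is a point mutation: its brighter probe set read 7.68, 7.41 and 7.18 on the mutant arrays and 7.49, 7.15 and 7.45 on the wild-type arrays. For the actin control transcript, the log2 difference between 3′ and 5′ probe sets, a measure of RNA quality, was 2.31, 0.41 and 1.23 on lin-35(n745) replicates 1 to 3 and 0.53, 0.70 and 0.78 on wild-type replicates 1 to 3. Mutant replicates 1 and 3 thus stood above the wild-type range by actin, and every result was also fitted without them. By the GAPDH control transcript they read 0.78 and 0.45, against 0.01 to 0.13 in the wild type. By the catalase control transcript, mutant replicate 1 read 3.73 and mutant replicate 3 read 1.55, the latter inside the wild-type range of 1.45 to 1.62. Fewer cells of a type and less RNA per cell cannot be told apart in these whole-larva samples.

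Of the 8 measured members, hsp-12.3 and hsp-12.6 fell in lin-35(n745) larvae, hsp-16.2 rose and 5 did not pass the test. That is 2 of 8 falling, where 6.12% of all 17118 measured genes fell, and 1 of 8 rising, where 5.71% of all measured genes rose. These shares are a description and were not tested. The mutant arrays lay wholly below the wild-type arrays in 2 of 8 members and wholly above them in 2 of 8, against 18.2% and 13.1% of all measured genes. The median difference was 0.56 over the 8 members and −0.04 over all measured genes. Ordered by their differences, hsp-12.6 stood at the 1.76 percentile of all genes and hsp-12.3 at the 3.65 percentile, while hsp-16.2 stood at the 99.2 percentile, hsp-16.41 at the 99.0 percentile and hsp-17 at the 95.7 percentile. The members that differed most thus lay at both ends of the distribution.

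The 2 neighbouring genes hsp-12.3 and hsp-12.6 fell in starved lin-35(n745) larvae. For hsp-12.6 the mutant arrays read 10.56, 10.81 and 10.20, and the wild-type arrays read 11.65, 12.25 and 11.84. The lowest wild-type array stood 0.84 above the highest mutant array. Its mean was 10.5 ± 0.31 in the mutant and 11.9 ± 0.31 in the wild type (SD, n = 3 each), a difference of −1.39 (95% interval −1.93 to −0.86, limma adjusted p = 0.0106). The mutant level corresponds to 0.381 of the wild-type level. For hsp-12.3, which encodes a close relative, the mutant arrays read 11.52, 11.19 and 11.16, and the wild-type arrays read 12.41, 12.48 and 12.38. Here the groups were 0.85 apart, and the arrays of a genotype lay close together. Its mean was 11.3 ± 0.20 in the mutant and 12.4 ± 0.05 in the wild type (SD, n = 3 each), a difference of −1.13 (95% interval −1.50 to −0.76, adjusted p = 0.00611). The mutant level corresponds to 0.457 of the wild-type level. Both genes passed without any 1 of the 6 arrays. With mutant replicates 1 and 3 both left out, hsp-12.3 passed (−1.23, adjusted p = 0.043) and hsp-12.6 did not (−1.11, adjusted p = 0.133). In that fit 1 mutant array remains, and its spread is taken from the wild-type arrays.

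**Figure D1:**
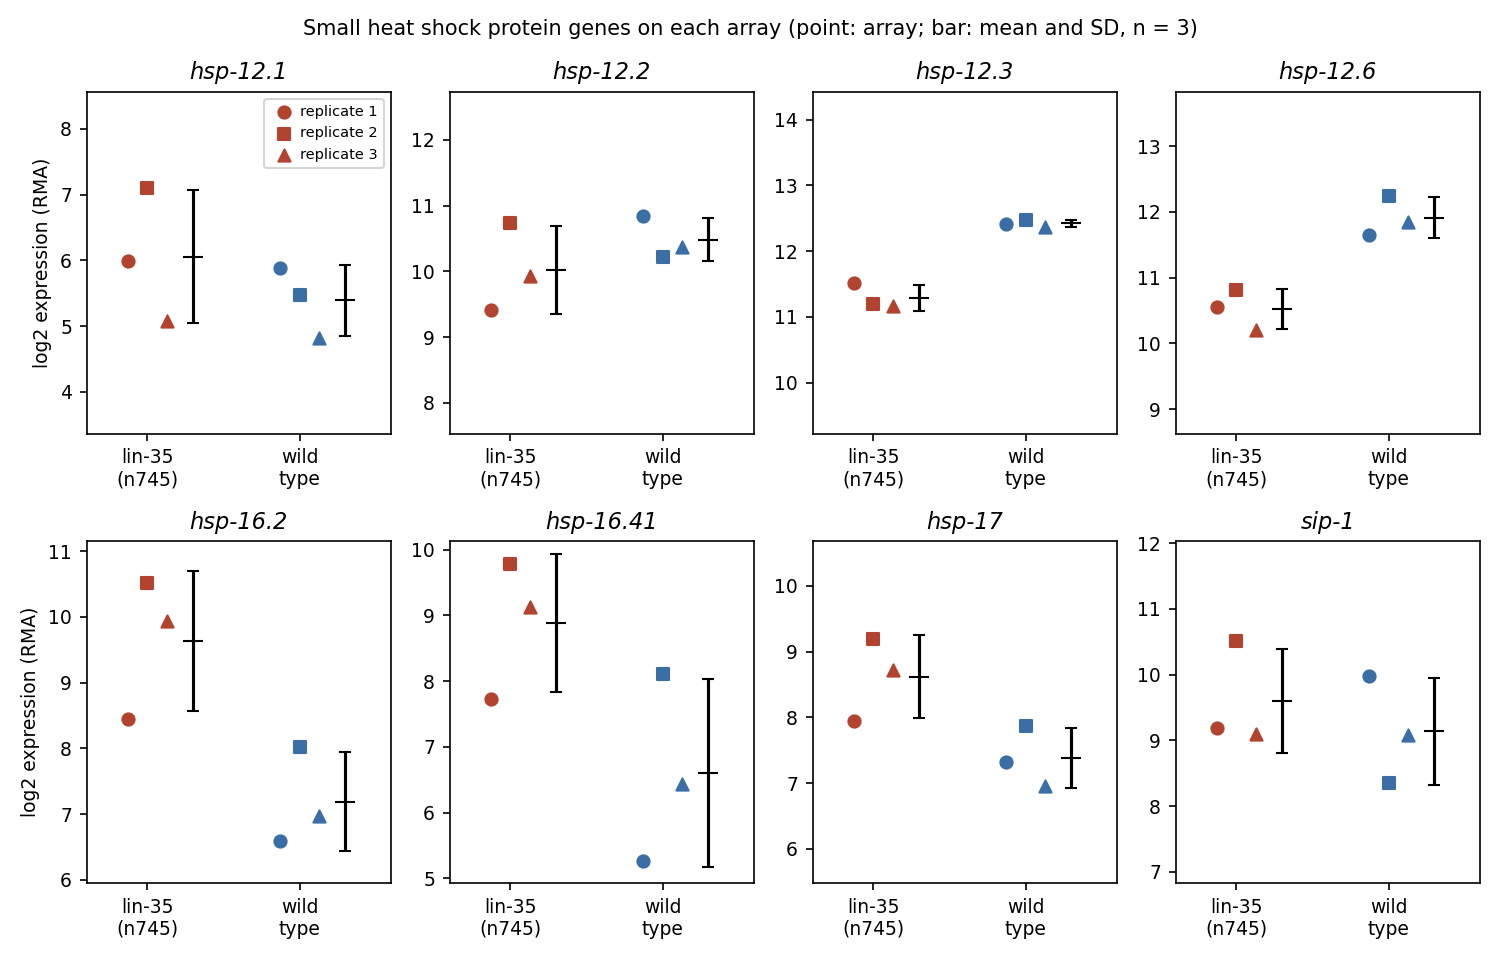
Log2 expression (RMA) of the 8 measured small heat shock protein genes in starved L1 larvae, lin-35(n745) in red on the left and wild type in blue on the right of each panel, with a point for each array (the marker shape gives the replicate number) and a black bar for the mean and SD (n = 3). Each panel spans the same number of log2 units. The mutant arrays of hsp-12.3 and hsp-12.6 lie wholly below the wild-type arrays, those of hsp-16.2 and hsp-17 lie wholly above them, and the other 4 genes overlap.

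The other 2 genes of the hsp-12 group did not pass the test. For hsp-12.2 the mutant arrays read 9.41, 10.73 and 9.93, and the wild-type arrays read 10.85, 10.22 and 10.36. The highest mutant array lay inside the wild-type range and the other mutant arrays lay below it. The difference was −0.45 (95% interval −1.26 to 0.36, limma adjusted p = 0.489). It was 0.26 with mutant replicates 1 and 3 both left out and 0.01 with the actin 3′ to 5′ difference as a covariate, so its sign turned in these 2 fits. For hsp-12.1 the mutant arrays read 5.98, 7.10 and 5.08, and the wild-type arrays read 5.89, 5.47 and 4.82. Mutant replicate 2 stood well above the wild-type range, mutant replicate 1 just above it and mutant replicate 3 inside it. The difference was 0.66 (95% interval −0.53 to 1.86, adjusted p = 0.494), and 0.14 without mutant replicate 2. The intervals of both genes hold 0.

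Of the hsp-16 genes among the measured members, hsp-16.2 rose and hsp-16.41 was higher on average without passing the test. The product of hsp-16.2 is a heat-inducible chaperone, and a reporter of this gene is widely used as a readout of stress. Its mutant arrays read 8.45, 10.51 and 9.94, and its wild-type arrays read 6.58, 8.02 and 6.96. The groups were 0.43 apart, mutant replicate 1 being the lowest mutant array and wild-type replicate 2 the highest wild-type array. Its mean was 9.63 ± 1.07 in the mutant and 7.19 ± 0.75 in the wild type (SD, n = 3 each), a difference of 2.44 (SE 0.57, limma adjusted p = 0.0373) or 5.45-fold. This call was lost without mutant replicate 2 (2.00, adjusted p = 0.0813), mutant replicate 3 (2.29, adjusted p = 0.13), wild-type replicate 1 (2.14, adjusted p = 0.122) or wild-type replicate 3 (2.33, adjusted p = 0.0865). It was also lost with mutant replicates 1 and 3 both left out, where the difference was 3.33 (adjusted p = 0.0707). Without mutant replicate 1 it was 3.04 (adjusted p = 0.011).

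The neighbour of hsp-16.2, hsp-16.41, encodes another heat-inducible member of the family. Its mutant arrays read 7.73, 9.79 and 9.12, and its wild-type arrays read 5.27, 8.10 and 6.44. Wild-type replicate 2 stood above mutant replicate 1, so the groups overlapped by 0.37. The difference was 2.28 (95% interval 0.47 to 4.08, limma adjusted p = 0.107), close in size to that of hsp-16.2. Without wild-type replicate 2 it was 3.03 and passed (adjusted p = 0.0494). Without wild-type replicate 1 it was 1.61 (adjusted p = 0.268), and with mutant replicates 1 and 3 both left out 3.18 (adjusted p = 0.234). In hsp-16.2 and hsp-16.41 alike, replicate 1 was the lowest and replicate 2 the highest array of each genotype, and the labels do not say whether a number marks a shared batch.

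The array carries 2 further probe sets that the platform annotation gives to 2 hsp-16 genes each, and hsp-16.48 is listed for 1 of them. Their values cannot be assigned to a single gene, so each probe set describes a pair of genes and no single member. One of them read 11.49, 11.87 and 11.98 on the mutant arrays and 8.82, 9.77 and 8.80 on the wild-type arrays. All mutant arrays stood well above all wild-type arrays, with a difference of 2.65 (95% interval 1.96 to 3.33, limma adjusted p = 0.00252) or 6.26-fold, and it passed without any 1 array. With mutant replicates 1 and 3 both left out it was 2.74 (adjusted p = 0.0621). The other read 10.97, 11.77 and 11.49 on the mutant arrays and 9.38, 10.70 and 9.47 on the wild-type arrays. These groups did not overlap either, with a difference of 1.56 (95% interval 0.65 to 2.46, adjusted p = 0.0442). That call was lost without mutant replicate 2 (adjusted p = 0.106), mutant replicate 3 (0.134), wild-type replicate 1 (0.14) or wild-type replicate 3 (0.105). With mutant replicates 1 and 3 both left out the difference was 1.92 (adjusted p = 0.188).

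**Figure D2:**
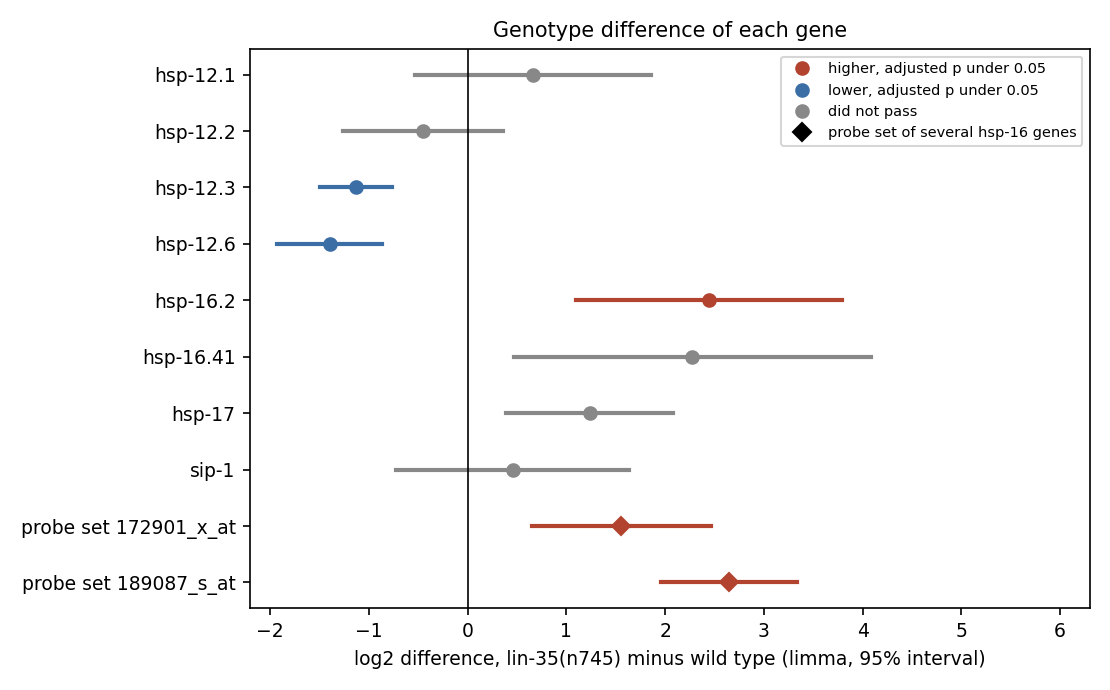
Log2 difference between lin-35(n745) and wild type for the 8 measured genes (circles) and for the 2 probe sets that each belong to several hsp-16 genes (diamonds), with 95% intervals from limma. Red marks a rise and blue a fall at an adjusted p under 0.05, and grey marks genes that did not pass. The intervals of hsp-12.3 and hsp-12.6 lie below 0, those of the hsp-16 probe sets and hsp-17 lie above 0, and those of hsp-12.1, hsp-12.2 and sip-1 cross it.

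The remaining members, hsp-17 and sip-1, did not pass either. HSP-17 is known in C. elegans to gather unfolding proteins into aggregates. Its mutant arrays read 7.94, 9.20 and 8.72, and its wild-type arrays read 7.33, 7.87 and 6.96. The groups did not overlap but were only 0.07 apart, and the difference was 1.24 (95% interval 0.39 to 2.08, limma adjusted p = 0.0705). Without mutant replicate 1 it was 1.58 and passed (adjusted p = 0.0257), and with the actin 3′ to 5′ difference as a covariate it was 1.67 and also passed (adjusted p = 0.0208). It did not pass without mutant replicate 2 (0.95, adjusted p = 0.152), without any other 1 array (adjusted p between 0.0803 and 0.186) or with mutant replicates 1 and 3 both left out (1.81, adjusted p = 0.096), and in all it passed in 7 of 19 alternative fits. SIP-1 is a small heat shock protein of oocytes and embryos. Its brighter probe set read 9.19, 10.50 and 9.10 on the mutant arrays and 9.98, 8.35 and 9.09 on the wild-type arrays. The wild-type range covered mutant replicate 1 and mutant replicate 3, and mutant replicate 2 stood above it. The difference was 0.46 (95% interval −0.73 to 1.64, adjusted p = 0.664), and 0.00 without mutant replicate 2. The other sip-1 probe set differed by 0.18 (adjusted p = 0.912), and its sign turned without mutant replicate 2 (−0.51) or wild-type replicate 2 (−0.23).

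The hsp-12 and hsp-16 averages differed in opposite directions between the genotypes. With each gene set to 0 at its wild-type mean, the 2 hsp-16 genes averaged 1.19, 3.25 and 2.63 on mutant replicates 1 to 3, against −0.97, 1.17 and −0.19 on wild-type replicates 1 to 3. The 4 hsp-12 genes averaged −0.68, −0.09 and −0.96 on mutant replicates 1 to 3, against 0.15, 0.05 and −0.20 on wild-type replicates 1 to 3. Their averages overlapped between genotypes, since mutant replicate 2 lay inside the wild-type range. The mean difference of the hsp-12 genes was −0.58 and that of the hsp-16 genes 2.36. Within an array, the hsp-12 average minus the hsp-16 average was −1.88, −3.35 and −3.59 in the mutant, against 1.12, −1.11 and −0.01 in the wild type. These values did not overlap between genotypes, and they differed on average by −2.94, against an SD between arrays of 0.93 in the mutant and 1.12 in the wild type. No p is given for this contrast, since its members were chosen with earlier results in view. The hsp-12 average joins hsp-12.3 and hsp-12.6, which fell, with hsp-12.1 (0.66) and hsp-12.2 (−0.45), which did not pass. This average thus does not describe every gene in it. The hsp-16 average holds only the neighbours hsp-16.2 and hsp-16.41. It leaves out hsp-16.20 (0.06) and hsp-16.21 (−1.21), which are not members and did not pass, so it does not describe all hsp-16 genes.

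**Figure D3:**
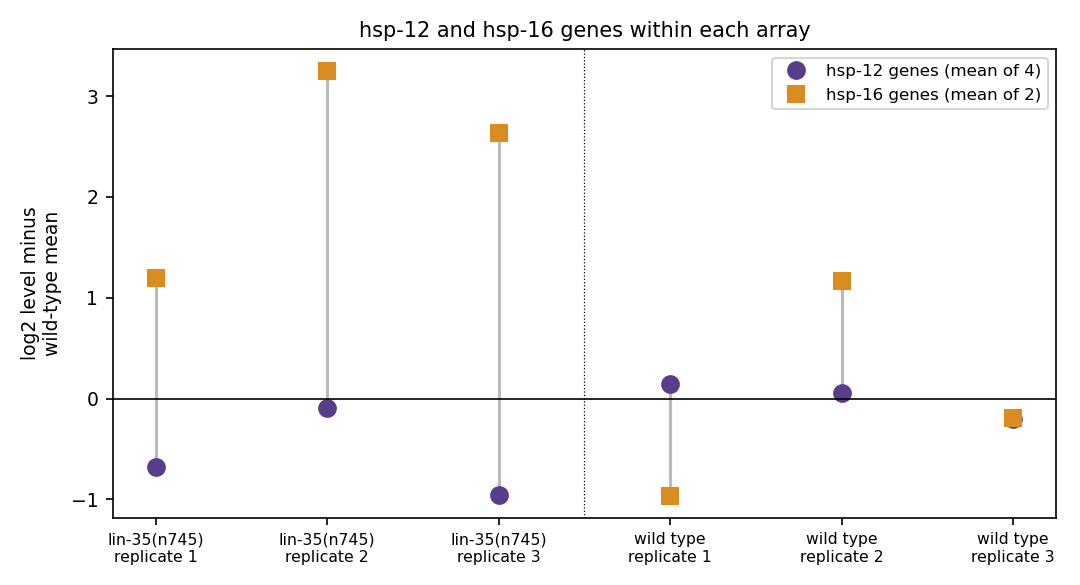
Mean of the 4 hsp-12 genes (circles) and of the 2 hsp-16 genes (squares) on each array, each gene set to 0 at its wild-type mean, in log2 units, with lin-35(n745) arrays left of the dotted line and wild-type arrays right of it. The circles minus the squares come to −1.88, −3.35 and −3.59 on the mutant arrays, against −1.11 on wild-type replicate 2, the lowest wild-type array.

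Members differed widely in how much they varied between arrays of the same genotype. The SD within a genotype was 1.25 for hsp-16.41, larger than that of 99.8% of all measured genes, and 0.92 for hsp-16.2, larger than that of 98.9%. It was 0.81 for hsp-12.1, 0.80 for sip-1, 0.55 for hsp-17 and 0.53 for hsp-12.2, the last of which was larger than that of 90.8% of genes. It was 0.31 for hsp-12.6 and 0.15 for hsp-12.3, on either side of the median gene at 0.25. Mutant replicate 2 was the highest mutant array for 7 of the 8 members, hsp-12.3 being the exception. It also had the smallest actin 3′ to 5′ difference and the highest array median, 6.11 against 5.91 to 5.98 on the other arrays. Mutant replicate 1, the lowest mutant array for hsp-12.2, hsp-16.2, hsp-16.41 and hsp-17, had the largest actin difference. For hsp-12.3 it was the highest mutant array. Mutant replicate 3 was the lowest mutant array for hsp-12.1, hsp-12.3, hsp-12.6 and sip-1. Wild-type replicate 2, the highest wild-type array for both hsp-16 genes, was the lowest wild-type array for all 5 muscle markers. The body wall myosin gene unc-54 read 9.21 there, against 11.63 or more on each of the other arrays, and myo-3 read 7.37 there, against 8.87 or more on each of the other arrays, and unc-15 was likewise lowest there, at 11.20. On that array tnt-2 read 9.63, against 11.02 and 10.91 on the other wild-type arrays, with 9.61 on mutant replicate 1. The marker unc-27 read 10.20 there, against 10.51 and 10.31 on the other wild-type arrays, and every mutant array was lower. Low values on that array were not confined to muscle markers. The pharynx markers myo-1 (8.48), myo-2 (5.71), pha-4 (7.42) and ceh-22 (6.19) were also lowest there among the wild-type arrays. The remaining pharynx marker, tnc-2 (11.18), was highest there. The part of RNA quality or of muscle content in the hsp-16 values was not tested beyond the fits that leave out these arrays or include the actin difference.

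Profiles over the 6 arrays were compared by the root mean square difference after each gene was set to 0 at its own mean. The gene nearest to hsp-16.41 among the members was hsp-16.2, at 0.413, with 2 of all measured genes nearer, and from the side of hsp-16.2 there were 4 nearer. The neighbours hsp-12.3 and hsp-12.6 were also each other's nearest member, at 0.279, with 265 of all measured genes nearer to hsp-12.6 and more of them nearer to hsp-12.3. No protein-coding gene starts between hsp-12.3 and hsp-12.6, nor between hsp-16.2 and hsp-16.41, in the WBcel235 gene table. Among the 1430 genes whose SD over the arrays was at least that of hsp-16.2 divided by 2, the genes nearest to it were Y37A1A.2 (0.361), K11H12.4 (0.38), eol-1 (0.385), F21C10.10 (0.41) and hsp-16.41. Among 5973 genes chosen likewise for hsp-12.6, the nearest to it were Y17G9A.2 (0.0754), F40A3.2 (0.0863), ZK856.7 (0.0993), F20A1.6 (0.108) and F53B3.6 (0.111). These distances are descriptions over 6 arrays that differ by genotype.

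Among other genes of the alpha-crystallin family, 1 passed the test, where 6.12% of all measured genes fell and 5.71% rose. Of 9 listed, 6 had a probe set of their own, none rose and 1 fell, with a median difference of 0.15, and at an unadjusted p under 0.05 none was higher and 2 were lower. The gene that fell, ZK1128.7, read 10.22, 10.44 and 9.91 on the mutant arrays, against 11.10, 10.87 and 10.85 on the wild-type arrays, a difference of −0.75 (limma adjusted p = 0.0427). Its call was lost in 12 of 19 alternative fits. These include the fits without any 1 array but mutant replicate 2 (adjusted p between 0.0783 and 0.158), repeated quantile normalization (0.0557), cyclic loess (0.0718), the actin covariate (0.123) and the fit with mutant replicates 1 and 3 both left out (−0.50, adjusted p = 0.261). The difference was −1.21 for hsp-16.21 (adjusted p = 0.113), which passed without mutant replicate 2 (−1.64, adjusted p = 0.0338). It was 0.31 for hsp-43 (adjusted p = 0.698), which passed without mutant replicate 1 (0.77, adjusted p = 0.042). It was 0.24 for hsp-25, 0.40 for Y55F3BR.6 and 0.06 for hsp-16.20, whose sign turned without mutant replicate 1 (−0.23) or wild-type replicate 3 (−0.04), with median centring (−0.03), with the actin covariate (−0.18) and with mutant replicates 1 and 3 left out (−0.02). Thus hsp-16.20 and hsp-16.21, which carry the hsp-16 name, did not pass the test upward in any fit without 1 array.

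The factors that control small heat shock genes were measured beside them. Of 4 measured genes for the heat shock factor and its inhibitors none passed, 1 being higher and 1 lower at an unadjusted p under 0.05. The brighter hsf-1 probe set read 8.24, 7.79 and 8.35 on the mutant arrays, against 7.52, 7.03 and 7.75 on the wild-type arrays, a difference of 0.69 (limma adjusted p = 0.117), and the other differed by 0.36. The brightest of 4 daf-16 probe sets read 10.96, 10.39 and 10.90 on the mutant arrays, against 10.01, 9.96 and 10.08 on the wild-type arrays. Its difference of 0.73 (adjusted p = 0.0508) passed without mutant replicate 2 (0.92, adjusted p = 0.0222) and was 0.37 with mutant replicates 1 and 3 both left out (adjusted p = 0.321), while the other daf-16 probe sets, 1 of which stands for the gene where probe sets that can match several transcripts are left out, differed by 0.37, −0.22 and −0.44 and did not pass. A list of 12 genes held the insulin pathway to DAF-16, daf-16 itself and genes whose products act with or against DAF-16. None of daf-2, age-1, pdk-1, akt-1, akt-2, sgk-1 and daf-18 passed, with differences of −0.07 to 0.59. Where 5.71% of all measured genes rose, 2 of the list rose and none fell. They were pqm-1, which encodes a transcription factor that acts in opposition to DAF-16, at 1.52 (adjusted p = 0.0024), and hcf-1, whose product binds and restrains DAF-16, at 1.32 (adjusted p = 0.0192). The call of hcf-1 was lost without mutant replicate 3 (adjusted p = 0.0687), with the actin covariate (0.0584) or with mutant replicates 1 and 3 both left out (0.233). Of 8 measured genes that rise with DAF-16, other than members, 2 fell and none rose, where 6.12% of all measured genes fell. At an unadjusted p under 0.05, 1 of the 8 was higher. The superoxide dismutase gene sod-3 differed by −1.32 (adjusted p = 0.0237) and dao-3 by −1.25 (adjusted p = 0.00728). The sod-3 call was lost without mutant replicate 1 (0.0518), mutant replicate 3 (0.078), wild-type replicate 1 (0.0837) or wild-type replicate 2 (0.0743), and with the actin covariate (0.0709). With mutant replicates 1 and 3 both left out, neither sod-3 (−0.95, adjusted p = 0.257) nor dao-3 (−1.01, adjusted p = 0.1) passed.

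Chaperones that work downstream of the small heat shock proteins were higher in part. Where 5.71% of all measured genes rose, 3 of 11 measured genes of the cytosolic HSP70 and HSP90 system rose and none fell. The median difference of the 11 was 0.67. The genes that rose were hsp-110, whose product is a nucleotide exchange factor for HSP70, at 1.66 (limma adjusted p = 0.00144), unc-23, which encodes a BAG-domain cochaperone, at 1.38 (adjusted p = 0.0112), and sti-1, which encodes a linker of HSP70 and HSP90, at 1.18 (adjusted p = 0.00833). The unc-23 call was lost without wild-type replicate 1 (0.0535), and with mutant replicates 1 and 3 both left out unc-23 (0.165) and sti-1 (0.0549) did not pass. The heat-inducible gene hsp-70 read 5.66, 7.62 and 5.54 on the mutant arrays, against 4.91, 5.19 and 5.09 on the wild-type arrays. All mutant arrays were higher, mutant replicate 2 by far the most, and the difference of 1.22 did not pass (adjusted p = 0.191). It was 0.54 without mutant replicate 2 and, with mutant replicates 1 and 3 left out, 2.56 (adjusted p = 0.0199). The constitutive gene hsp-1 differed by 1.07 (adjusted p = 0.177), and without mutant replicate 1 by 1.52, which passed (adjusted p = 0.0397).

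Against the 5.71% of all measured genes that rose, 2 of 4 chaperones of other compartments rose and none fell. They were hsp-4, the inducible BiP gene of the endoplasmic reticulum, at 2.03 (limma adjusted p = 0.0306), and the mitochondrial chaperonin gene hsp-60, at 0.72 (adjusted p = 0.0481). The hsp-4 call was lost without mutant replicate 3 (0.108) or any 1 wild-type array (0.0734 to 0.0959). The hsp-60 call was lost without any 1 array but wild-type replicate 3 (0.0558 to 0.173), with the actin covariate (0.0702) and with mutant replicates 1 and 3 both left out (0.156), and the other hsp-60 probe set differed by −0.01. The brighter probe set of hsp-6, the mitochondrial HSP70 gene, differed by 0.64 (adjusted p = 0.187), while its other probe set differed by 1.80 and passed (adjusted p = 0.0112). Of 5 measured osmotic and proteotoxic stress genes none passed, and 1 was lower and none higher at an unadjusted p under 0.05. The smallest p among them was that of ttr-1, with a difference of −1.09 (adjusted p = 0.0969).

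**Figure D4:**
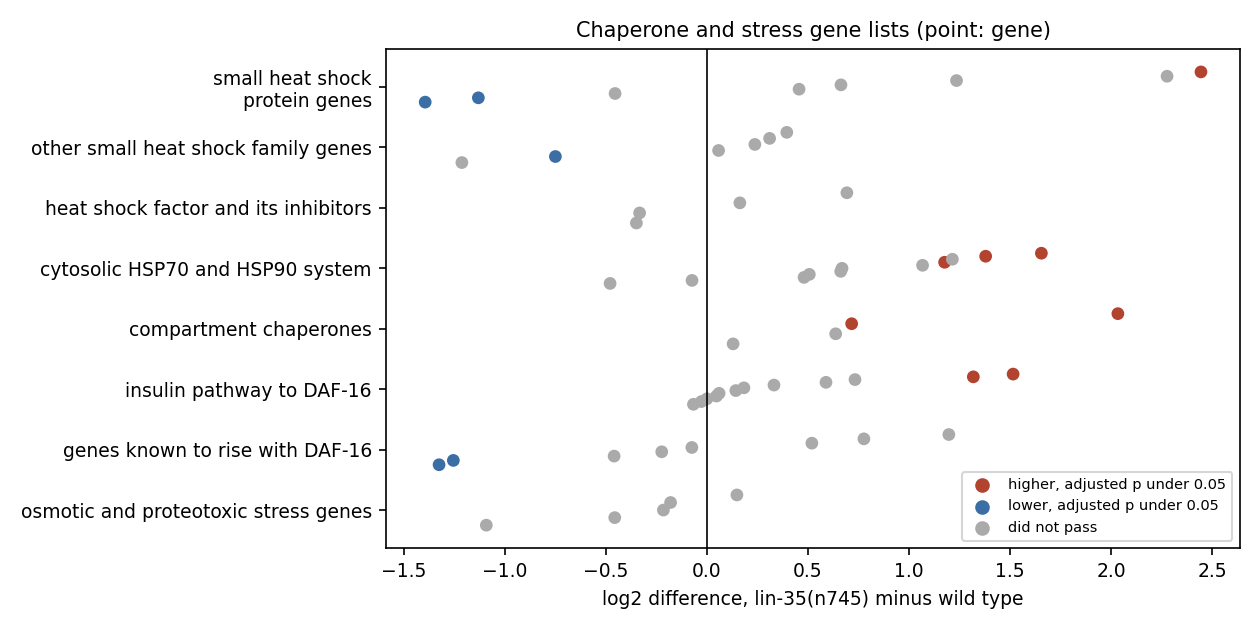
Log2 difference between lin-35(n745) and wild type for each measured gene (points, each gene by its brightest probe set) of the small heat shock protein genes and of 7 lists of related genes, with genes that rose in red, genes that fell in blue and genes that did not pass in grey. The small heat shock protein genes span −1.39 to 2.44, a wider range than that of any other list shown. Members and lists were chosen with earlier results of these data known, so this comparison is only a description.

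Markers of tissues and stages were all measured, and none had a mean level under the 25th percentile of probe sets. For comparison with the counts below, 5.71% of all measured genes rose and 6.12% fell. Of 10 embryo markers none rose and 1 fell, and their summed level, as log2, was 11.39 to 11.76 on the mutant arrays and 10.48 to 11.31 on the wild-type arrays. The brightest of them, skn-1, weighed most in this sum, with a mean of 10.9 in the mutant and 10.1 in the wild type. It did not pass the test (limma adjusted p = 0.175). Of 10 oocyte and eggshell markers 1 rose and none fell, with a summed level of 9.05 to 9.25 in the mutant and 9.02 to 9.15 in the wild type. Of 5 markers each, 2 intestine markers and 1 hypodermis and cuticle marker rose, 2 pharynx markers fell, and no muscle or neuron marker passed, of which 2 neuron markers were lower at an unadjusted p under 0.05. Muscle markers summed to 13.52 to 13.76 in the mutant and 12.31 to 14.05 in the wild type. Neuron markers summed to 12.90 to 13.36 in the mutant and 13.36 to 13.50 in the wild type. Without 1 array, the calls numbered 0 to 1 for embryo, 0 to 1 for oocyte, 1 to 2 for intestine, 0 to 1 for hypodermis and 0 to 2 for pharynx markers. With mutant replicates 1 and 3 both left out they numbered 1 for intestine markers and 0 for each of the other lists. The part of such differences in the hsp-12 and hsp-16 values was not tested.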

How the data were processed

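The deposited values are log2 levels of each probe set on each Affymetrix array, made by the authors with RMA, per the submitters' processing notes, whose version the sources used here do not give. RMA aligns the arrays' distributions and compresses dim signals, so a change shared by all transcripts would not be seen. The labels' protocols give 6 µg of total RNA as the input for labelling, and per the series' design text the replicates are biological. Of 22625 probe sets, 77 controls were left out. Names came from the platform annotation (20766 probe sets with 1 symbol, 887 with several, 972 with none), and Entrez identifiers changed 0 of them. Genotypes were compared with limma 3.58.1 in R 4.3.3 (lmFit, eBayes, two-sided), with Benjamini-Hochberg adjustment over 22548 probe sets, 4 residual and 3.24 prior degrees of freedom, and the fit was tested on simulated data. Precision is limited by having 3 arrays per genotype.

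The members and lists were chosen with earlier results of these data known. The genes named were all members, hsf-1, daf-16, hsp-70, hsp-1, hsp-4 and hsp-6, the called genes of each related list (up to 3 of smallest p in each direction, or the gene of smallest p where none was called), and the 5 genes nearest in profile to hsp-12.6 and to hsp-16.2. The uncalled alpha-crystallin genes, the muscle markers and the pharynx markers were chosen after their values were seen. In all, 19 alternatives were run: 3 scalings, 2 filters on dim probe sets, omission of probe sets matching several transcripts, a replicate block, trend and robust settings, array weights, a floor, averaging over a gene's probe sets, the actin covariate, omission of mutant replicates 1 and 3, and omission of each array in turn. A planned search of promoters for motifs was not run, and no sequences were used here.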

Additional observations from a re-analysis of the deposited data

How the results depend on the processing

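Under 19 alternatives the members called lower numbered 2 in all but the fit without lin-35(n745) replicates 1 and 3 (1, hsp-12.3). The members called higher numbered 1 as reported. They were 2 with each array centred on its median, with either filter on dim probe sets or with the actin covariate (hsp-17 joining hsp-16.2), 3 with array weights (hsp-16.41 as well), 0 with a floor at the 10th percentile, 0 without lin-35(n745) replicates 1 and 3, and 0 to 2 without any 1 array. The cause was not tested. The replicate block gave 3 higher, hsp-16.2 (adjusted p = 0.00243), hsp-16.41 (0.0028) and hsp-17 (0.0233), and 2 lower. Deviations of same-numbered arrays correlated at 0.0479, 0.0832 and 0.0731, and not every array correlated best with its own number. The shift between hsp-12 and hsp-16 genes ranged from −3.57 to −2.38 and never turned. Over all probe sets 2542 were called, against 1643 without probe sets that can match several transcripts, which are fewer tested, 1552 with the floor, 768 without lin-35(n745) replicates 1 and 3, 1002 to 2380 without any 1 array, and more with median centring (3394), array weights (3354) and the replicate block (3063). Of the calls, 50.4% were higher, against 37.6% with median centring, 47.3% with repeated quantile normalization and 59.5% with cyclic loess. Signs turned for daf-16 without probe sets that can match several transcripts (−0.22, another probe set), for hsp-12.2 with the actin covariate (0.0077) and without lin-35(n745) replicates 1 and 3 (0.26), for the dimmer sip-1 probe set with array weights (−0.0201) and without 1 array (−0.51 to 0.59), and for hsp-16.20 with median centring (−0.0272), the actin covariate (−0.18), without lin-35(n745) replicates 1 and 3 (−0.0199) and without 1 array (−0.23 to 0.31). Counting every fit of a single gene or probe set, over 41 genes and probe sets and their alternatives, 616 kept direction and side of the threshold, 111 lost the call, 22 gained one and 11 turned sign.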
